A study of Caenorhabditis elegans with 24 samples.

Results

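The comparison described here is the mRNA response of first-stage (L1) larvae of Caenorhabditis elegans to 1 h with food, with ivermectin given to stop them from swallowing it. The 4 libraries of IvF (ivermectin and food for 1 h) were compared with the 4 libraries of IvS (ivermectin without food for 1 h), which are 8 of the 24 libraries of the series. Of 44968 identifiers counted in each library, the 17313 above 1 CPM (counts scaled to 1000000 counted reads) in at least 4 of these 8 libraries were kept and all of them are described. Both groups were L1 larvae of strain LRB269, kept at 22°C with 5 ng/mL of ivermectin from the embryo stage, and collected 25 h after hypochlorite treatment of the mothers. Escherichia coli HB101 at 25 mg/mL was added for the last hour in IvF, and no food in IvS. The strain carries the alleles glc-1(pk54), avr-15(vu227), avr-14(vu47) and glc-3(ok321), which affect subunits of the glutamate-gated chloride channels through which ivermectin acts. It also carries the transgene dukIs10, with GFP under the hlh-8 promoter as a marker. In it the promoter of myo-2, a pharyngeal muscle myosin, drives avr-15, and a further construct drives mCherry. By the study's design the drug thus acts on the pharynx and stops its pumping. The study's general methods give this strain a higher dose than 5 ng/mL, the lowest that stopped eating as judged by growth. Whether 5 ng/mL blocked all swallowing is not stated for these cultures. Each library was made from a whole-larva culture, and the study describes the 4 cultures of a group as biological replicates. Libraries of LRB269 larvae that never met ivermectin, with food (F) or without it (S) for 1 h, and IvF and IvS at 24 h, enter the same fit, where they add to the estimate of the spread, and are compared among themselves only to set the response in IvF beside them.

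Larvae that hatch without food stop development in the L1 stage and resume it when they are fed. Insulin-like peptides, several of them made by chemosensory neurons, act through the receptor DAF-2 and the kinases PDK-1 and AKT-1 to keep the FOXO factor DAF-16 out of the nucleus, and DAF-16 sustains the arrest. The intestine makes many of the enzymes that modify and export foreign compounds, and it stores most of the fat, which is broken down in peroxisomes and mitochondria.

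Counted reads per library ranged between 16413695 and 19448998 in IvF and between 14498061 and 18909378 in IvS, with an exact two-sided permutation p of 0.0571 (n = 4 each, adjusted to 0.2 over 7 library measures). The share of reads in no annotated gene spanned 4.46% to 9.52% in IvF and 5.58% to 7.90% in IvS, with an exact permutation p of 0.943. The aligned share of reads was 81.6%, 82.2%, 79.0% and 77.9% in IvF A to D, against 82.1% to 82.7% in IvS, with an exact permutation p of 0.0571 (adjusted to 0.2), so that IvF C and D were the lowest. IvF libraries stood further apart than IvS libraries, with pairwise correlations of log2(CPM + 1) of 0.969 to 0.986 within IvF and 0.986 to 0.995 within IvS. The replicates are called A, B, C and D here, and values are always given in that order. Among the genes altered in the strain, avr-15, whose counts include the transgene, was at 1245, 1096, 1101 and 1025 CPM in IvF and at 1281, 987, 1121 and 1078 CPM in IvS, and the groups overlapped. glc-1 was at 21.3, 32.2, 25.6 and 20.4 CPM in IvF, against 67.2, 48.3, 41.5 and 32 CPM in IvS (log2 fold change -0.92, not called without IvF D or IvS A). Summed markers of pharyngeal muscle (7 genes) ranged between 5029 and 6359 CPM in IvF and between 5145 and 6501 CPM in IvS, and those of the intestine (8 genes) between 2188 and 2973 CPM in IvF and between 1747 and 2803 CPM in IvS. No summed marker list differed between the groups by the exact permutation test, with p-values of at least 0.0571 over 10 lists before adjustment and 0.571 after it. With 4 libraries in each group, a single fully separated list could not reach an adjusted p below 0.05 over 10 lists. The same holds for a single measure over the 7 library measures. The test thus does not show that the groups had the same make-up. In such bulk libraries more cells of a type and more RNA per cell cannot be told apart.

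After 1 h with food and ivermectin, 1113 genes differed in mRNA level from larvae with ivermectin and no food, 6.43% of those tested. Of these 679 were higher (3.92%) and 434 were lower (2.51%) in IvF. A gene was called when edgeR's quasi-likelihood test gave a Benjamini-Hochberg adjusted p below 0.05 over all genes tested and the log2 fold change was beyond 0.5 in size, and every adjusted p below comes from that fit, which has 1 mean for each of the 6 groups of the series. The p-values rest on a spread estimated over all 24 libraries, not on that of the 8 compared libraries alone. CPM values use the plain library totals and the fold changes totals scaled by edgeR's trimmed mean method (TMM), so their ratios can differ slightly. The rises were larger than the falls: the median log2 fold change was 1.28 over the genes called higher and -0.92 over those called lower, against 0.025 over all genes tested. Rises beyond 3 on the log2 scale numbered 54 and falls of that size 3. The genes called higher together took 56060 CPM in IvF and 18190 CPM in IvS, while those called lower took 18740 CPM in IvF and 35230 CPM in IvS. In 616 of the genes called higher and 423 of those called lower the 4 IvF libraries did not overlap the 4 IvS libraries, a separation that 17.6% of all genes tested showed in either direction. Without any 1 of the 8 libraries, between 792 (without IvS B) and 1038 (without IvF B) genes were called, and those called higher numbered 452 without IvS B. Exons of 200 genes called higher and 114 called lower overlap those of another gene, and the library kit did not keep strand, so the reads of such pairs cannot be assigned with certainty.

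**Figure D1:**
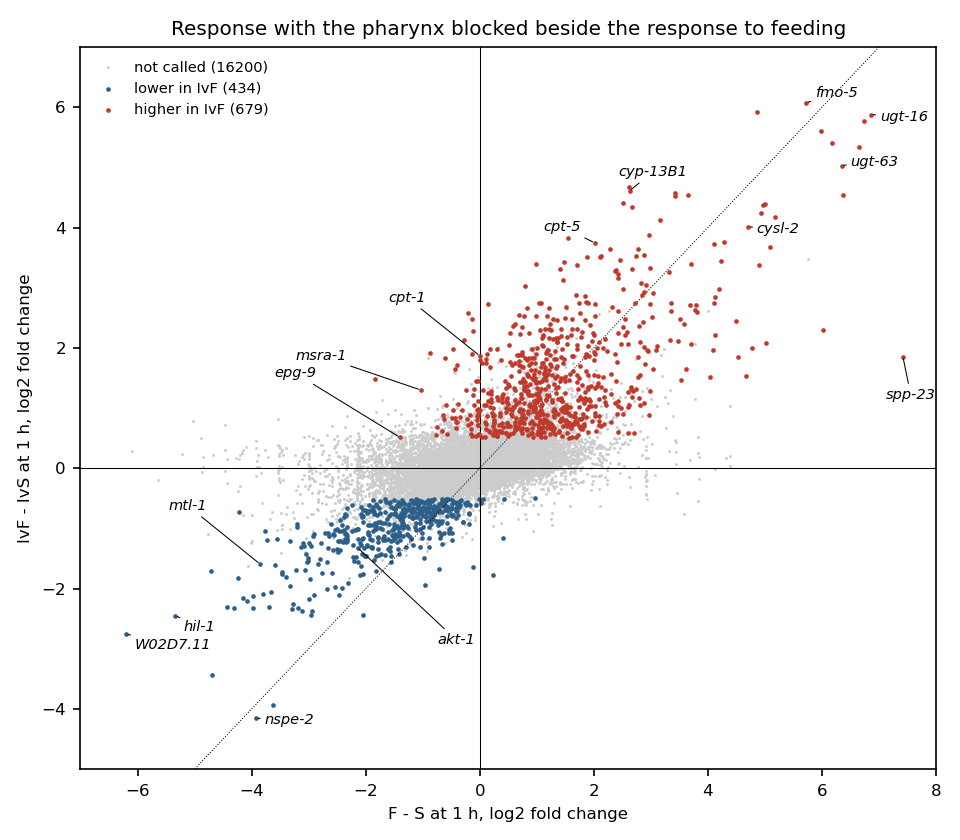
Response to food with ivermectin (IvF over IvS at 1 h, log2 fold change, vertical axis) and response to feeding (F over S at 1 h, log2 fold change, horizontal axis) of the 17313 genes tested, 1 point a gene. Coloured points are the 679 genes called higher and the 434 called lower in IvF. Of them 624 of those higher and 428 of those lower have the same sign in both comparisons, and the dotted line marks equal changes.

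Enzymes that add sugar groups to foreign and endogenous compounds gave the most calls of the 71 gene lists. Of 67 UDP-glucuronosyltransferase (ugt) genes tested, 31 were called higher and 5 lower, with a median log2 fold change of 0.45. ugt-63 was at 111, 114, 91.6 and 158 CPM in IvF, against 2.24, 3.12, 3.33 and 6.0 CPM in IvS. All 4 IvF libraries were thus far above every IvS library and close to each other, and the log2 fold change was 5.03 ± 0.38 (SE, adjusted p = 3e-08). ugt-58 had 169, 168, 136 and 187 CPM in IvF, against 57.4, 58.1, 50.1 and 52.4 CPM in IvS. Its rise was smaller and as even across libraries, with a log2 fold change of 1.61 ± 0.14 (adjusted p = 1.7e-07). ugt-34 had 89.4, 19.2, 13.8 and 94.8 CPM in IvF, against 1.12, 0.740, 0.866 and 1.38 CPM in IvS, so that A and D were several times above B and C while all 4 exceeded IvS. The log2 fold change of ugt-34 was 5.77 ± 0.74 (adjusted p = 3.1e-05). ugt-43 went the other way, with 2.52, 3.84, 4.77 and 4.08 CPM in IvF and 13, 10.1, 7.67 and 10.1 CPM in IvS (log2 fold change -1.44 ± 0.23, adjusted p = 0.00023). Over leave-one-out fits the count of ugt genes called higher stayed between 27 and 30.

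Cytochrome P450 (cyp) genes, whose products oxidise foreign compounds and lipids, were called higher in 15 of 79 tested and lower in 6, with a median log2 fold change of 0.23. cyp-35C1 had 70.2, 30.5, 26.3 and 179 CPM in IvF, against 4.73, 3.75, 2.87 and 4.55 CPM in IvS. Every IvF library was above every IvS library, with D highest, and the log2 fold change was 4.24 ± 0.65 (adjusted p = 0.00019), or 3.53 without IvF D. cyp-13B1 had 659.6, 27.4, 18.6 and 111 CPM in IvF, against 6.97, 11.5, 8.66 and 11 CPM in IvS. Here A lay far above the other 3, and the log2 fold change of 4.61 was 2.35 without IvF A. cyp-37B1 fell to 4.37, 5.20, 8.25 and 12.2 CPM in IvF, against 36.8, 37.1, 38.4 and 40.1 CPM in IvS, a log2 fold change of -2.38 ± 0.53 (adjusted p = 0.0059). The count of cyp genes called higher was 9 without IvF D, IvS B or IvS C, and 8 in a fit of the 8 libraries alone, in which the spread is estimated from these libraries only. In that fit cyp-13B1 was not called.

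Of 36 ABC transporter genes tested, which include export pumps, 11 were called higher and 1 (mrp-3, not called without IvF A or IvF B) lower, and 9 of the 11 belong to the P-glycoproteins (pgp), which pump compounds out of intestinal and excretory cells. The list's median log2 fold change was 0.23, and 11 of the 36 were negative. pgp-3 had 220.4, 202.1, 154 and 303 CPM in IvF, against 39.7, 42.4, 42.7 and 49.7 CPM in IvS, with no overlap and a log2 fold change of 2.34 ± 0.24 (adjusted p = 2e-06). pgp-14, which is needed for a lipid barrier in the pharynx, had 889, 594, 540.2 and 996 CPM in IvF, against 236, 180.1, 214 and 189 CPM in IvS (log2 fold change 1.90 ± 0.24, adjusted p = 2.5e-05). The short-chain dehydrogenases (dhs) were called higher in 9 of 30 and lower in 4, among them dhs-8 at 114, 35.1, 26.9 and 78.7 CPM in IvF, against 2.05, 3.07, 3.47 and 4.14 CPM in IvS (log2 fold change 4.39, and 3.79 without IvF A). The dhs count was 5 without IvF A and 4 in the fit of the 8 libraries alone. Glutathione S-transferases (gst) were divided, with 4 called higher and 4 lower of 47 tested and a median of -0.02. gst-21 had 40.3, 12.8, 13 and 43.4 CPM in IvF, against 4.36, 4.12, 3.73 and 4.76 CPM in IvS, and gst-41 had 2.31, 7.30, 5.92 and 8.16 CPM in IvF, against 11.9, 21.7, 18.3 and 23.2 CPM in IvS. The gst count of rises was 2 without IvF D or any 1 of the IvS libraries, and that of falls 2 without IvS D.

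**Figure D2:**
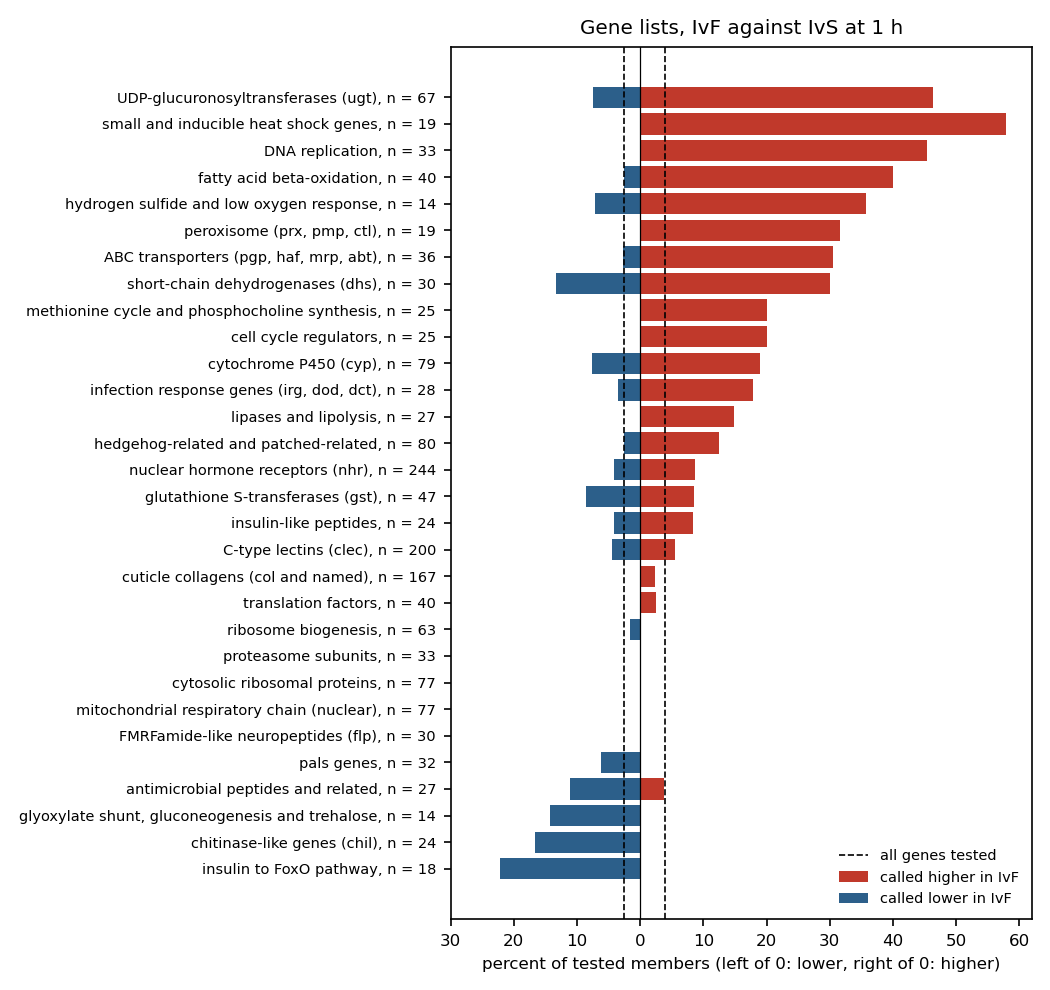
Percent of the tested members of 30 gene lists (rows, n tested in each label) called higher in IvF (red bars, right of 0) and called lower (blue bars, left of 0), with dashed lines at the percentages over all genes tested (3.92% higher and 2.51% lower). The longest red bars are those of the heat shock (11 of 19), ugt (31 of 67) and DNA replication (15 of 33) lists, and the longest blue bar that of the insulin to FoxO pathway (4 of 18).

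Fatty acid breakdown was the part of metabolism with the most genes called. Of 40 beta-oxidation genes tested 16 were called higher and 1 lower, and the median log2 fold change was 0.50. cpt-1, a carnitine palmitoyltransferase that passes fatty acids into mitochondria, had 2235, 597, 578 and 826 CPM in IvF, against 282, 304, 317 and 344 CPM in IvS. The 4 IvF libraries did not overlap IvS, and A stood highest (log2 fold change 1.87 ± 0.35, adjusted p = 0.0014, and 1.02 without IvF A). acox-1.1, a peroxisomal acyl-CoA oxidase, had 1457, 205, 186.5 and 923 CPM in IvF, against 95.9, 70.8, 69.0 and 57.3 CPM in IvS (log2 fold change 3.32 ± 0.58, adjusted p = 0.00076, and 2.46 without IvF A). Its relative acox-1.2 had 44.9, 11.2, 13.1 and 39.7 CPM in IvF, against 2.93, 3.23, 2.0 and 3.17 CPM in IvS, with A and D again above B and C (log2 fold change 3.31 ± 0.49, adjusted p = 0.00014). daf-22, the peroxisomal thiolase that also shortens the side chains of dauer pheromone, had 1540.0, 247, 199 and 903 CPM in IvF, against 132, 109, 89.6 and 93.2 CPM in IvS. The rise of daf-22 was 2.86 ± 0.58 on the log2 scale (adjusted p = 0.0027), and 1.97 without IvF A. ech-7, an enoyl-CoA hydratase gene, fell to 49.7, 43.5, 41.9 and 34.2 CPM in IvF, against 189, 165, 125.6 and 116 CPM in IvS (log2 fold change -1.78 ± 0.26, adjusted p = 0.00011). acox-1.3, acox-1.4, acox-1.6 and acox-3 overlapped between the groups and were not called. The beta-oxidation count was 11 without IvF A. In the fit of the 8 libraries alone, where the spread is estimated over IvF and IvS together without the other groups, 3 of the 40 were called higher. Neither cpt-1 nor daf-22 was called in that fit.

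All 19 peroxisome genes tested (prx, pmp and ctl, which build peroxisomes or work in them) had a positive log2 fold change (median 0.66), and 6 of them were called. prx-11, which acts in peroxisome division, had 125, 23, 19.5 and 45.3 CPM in IvF, against 12.8, 13.4, 13.6 and 10.8 CPM in IvS. All IvF libraries were above IvS and A was the highest, with a log2 fold change of 2.18 ± 0.42 (adjusted p = 0.0017) that was 1.12 without IvF A. This list count was 3 without IvF A and 1 in the fit of the 8 libraries alone. pmp-1, a peroxisomal membrane transporter, rose evenly, to 93.8, 104, 94.3 and 82.8 CPM in IvF, against 45.1, 36.9, 41.9 and 43.1 CPM in IvS (log2 fold change 1.19 ± 0.22, adjusted p = 0.00094). Of 27 lipase and lipolysis genes 4 were called higher, and the count was 2 without IvF A, IvS B, IvS C or IvS D. lips-10, a lipase gene, had 293, 109, 85.5 and 239.9 CPM in IvF, against 14.3, 22.2, 18.2 and 25.9 CPM in IvS (log2 fold change 3.23 ± 0.45, adjusted p = 5.9e-05). plin-1, the perilipin that coats lipid droplets, was at 1942, 216, 157 and 187 CPM in IvF, against 184, 166, 154 and 146 CPM in IvS, so that the other 3 IvF libraries lay at or near the IvS range. Its log2 fold change of 2.12 (adjusted p = 0.037) was 0.13 without IvF A, and the call was also lost without any 1 of the IvS libraries. Of 31 fatty acid synthesis genes 2 were called higher and 1 lower. fasn-1, the fatty acid synthase, had 672, 659, 724 and 525 CPM in IvF, against 425, 384, 399 and 366 CPM in IvS (log2 fold change 0.73 ± 0.16, adjusted p = 0.0056), while pod-2, acetyl-CoA carboxylase, had 852, 826, 902 and 582 CPM in IvF, against 1517, 1818, 1435 and 1330.0 CPM in IvS (log2 fold change -0.92 ± 0.23, adjusted p = 0.013). The call of pod-2 was lost without IvF D or IvS B.

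The 4 IvF libraries differed among themselves more than the 4 IvS libraries did. The range across a group's libraries was taken on the log2(CPM + 1) scale. Over the 534 genes called higher with a mean of at least 10 CPM, its median was 0.891 in IvF and 0.364 in IvS. It exceeded 2 for 104 of them in IvF and 1 in IvS. These genes passed the 10 CPM level through IvF, and IvS values near 1 CPM have narrower ranges on this scale. Part of that contrast is thus set by the choice of genes. Over all 9196 genes at that level the medians were 0.345 in IvF and 0.242 in IvS. Among all 110 genes called higher with a range above 2 in IvF, A and D were both above B and C in 91, and C was the lowest in 79. fmo-5, a flavin-containing monooxygenase, had the widest range, with 2309, 169, 115 and 5758 CPM in IvF, against 40.7, 25.8, 26.5 and 28.4 CPM in IvS. No IvF library overlapped IvS, and the log2 fold change of fmo-5 was 6.07 ± 1.3 (adjusted p = 0.0044), or 5.02 without IvF D. By list, the 15 cyp genes called higher lay at medians of 3.30, 1.33, 1.11 and 3.84 above the IvS mean on the log2(CPM + 1) scale in IvF A to D, and the 16 beta-oxidation genes at 3.65, 1.05, 0.85 and 1.73. The 31 ugt genes lay at 1.93, 1.62, 1.32 and 2.15. IvF A had the lowest share of reads outside genes (4.46%) and IvF D the highest (9.52%), and with that share as a covariate in the fit 14 cyp, 16 beta-oxidation and 31 ugt genes were called higher, and 7, 2 and 29 when the 8 libraries were fitted alone with it.

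**Figure D3:**
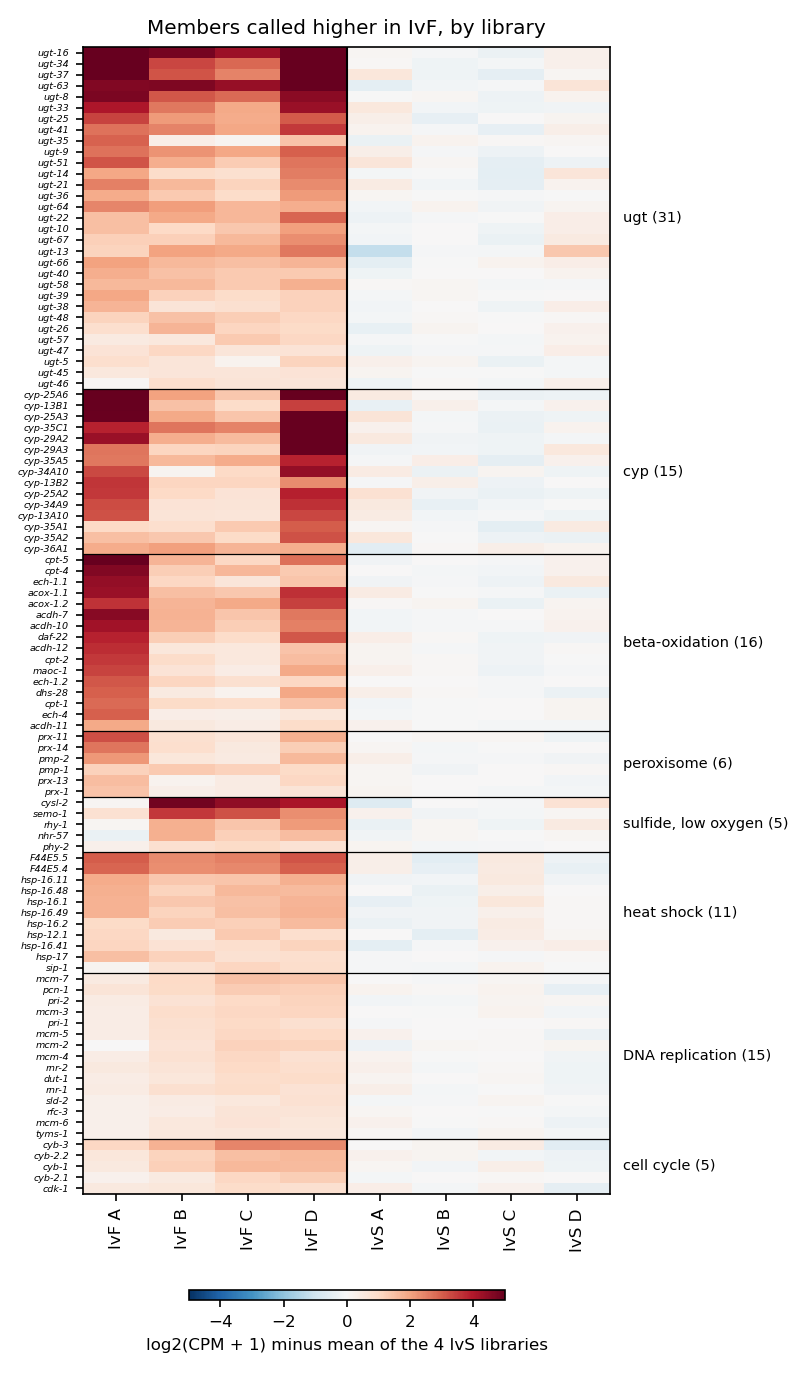
Genes called higher in 8 lists (rows, grouped by list with the number of genes), by library (columns, IvF A to D left of IvS A to D): the colour is log2(CPM + 1) minus the mean of the 4 IvS libraries, with values beyond 5 shown as 5. In the cyp and beta-oxidation genes IvF A (medians 3.30 and 3.65) is darker than IvF C (1.11 and 0.85), while in the sulfide and low oxygen genes IvF A (median 0.11) is paler than the other 3.

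In genes of the response to hydrogen sulfide and low oxygen IvF A was the lowest IvF library by the median of the called members. Of 14 tested, 5 were called higher and 1 lower, with a median log2 fold change of 0.95. cysl-2, an enzyme that consumes cyanide, had 32.3, 869, 670.0 and 519.9 CPM in IvF, against 18.5, 30.3, 28.4 and 49.3 CPM in IvS. IvF A lay within the IvS range and the other 3 far above it, with a log2 fold change of 4.01 ± 0.58 (adjusted p = 0.00011). rhy-1, a membrane acyltransferase that limits the hypoxia factor HIF-1, had 13.3, 43.9, 33.8 and 57.1 CPM in IvF, against 9.52, 13.2, 10.5 and 17 CPM in IvS, and again only IvF A overlapped IvS (log2 fold change 1.53 ± 0.29, adjusted p = 0.0014). semo-1, a methanethiol oxidase, had 159.5, 1083, 865 and 467 CPM in IvF, against 107, 82.7, 86.6 and 98.8 CPM in IvS, with all IvF libraries above IvS (log2 fold change 2.75 ± 0.52, adjusted p = 0.0014). rips-1, a methyltransferase gene outside the list, was also lowest in IvF A, with 8.84, 175, 147 and 85.5 CPM in IvF, against 11.4, 16.18, 10.9 and 23.7 CPM in IvS. Without IvF A, 8 of the 14 were called higher. Over all genes called higher with a range above 2 in IvF, B, C and D were all above A in 13. ftn-1, the intestinal ferritin, was the 1 that fell, to 2.31, 6.83, 7.89 and 4.81 CPM in IvF, against 32.7, 16.3, 14.1 and 21.2 CPM in IvS (log2 fold change -1.97 ± 0.30, adjusted p = 0.00017).

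Of 19 small and inducible heat shock genes 11 were called higher, and 6 of the other 8 had a negative log2 fold change that was not called. The median was 1.17, and the count stayed between 8 and 10 when 1 library was left out. The heat-inducible 70 kDa chaperone genes F44E5.4 and F44E5.5 are near-identical neighbours, so their reads are uncertain between the pair. F44E5.5 had 92.2, 57.6, 64.8 and 99.9 CPM in IvF, against 13.2, 6.98, 15 and 8.76 CPM in IvS, with no overlap and a log2 fold change of 2.85 ± 0.51 (adjusted p = 0.00083). hsp-17 had 68.7, 53.8, 41.4 and 43.3 CPM in IvF, against 22.9, 24.4, 22.9 and 25.1 CPM in IvS (log2 fold change 1.17 ± 0.26, adjusted p = 0.0055). Side by side on chromosome V, hsp-16.1, hsp-16.48, hsp-16.49 and hsp-16.11 made a run of 4 genes called higher. The hsp-16 genes stayed low: hsp-16.2 had 3.65, 4.68, 4.36 and 6.15 CPM in IvF, against 0.934, 1.11, 2.13 and 1.45 CPM in IvS (log2 fold change 1.74 ± 0.34, adjusted p = 0.0016). With the stricter filter of a mean of 5 CPM, which removes genes at that level, 4 of the list were called higher. The constitutive chaperone hsp-1 had 1548, 1403, 1139 and 1184 CPM in IvF, against 658, 747, 795 and 706 CPM in IvS (log2 fold change 0.89 ± 0.17, adjusted p = 0.0016). Of 21 endoplasmic reticulum chaperones 1 was called higher and 1 lower.

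Insulin-like peptides changed in single members. Of 24 tested, 2 were called higher and 1 lower (12.5%, against 6.43% of all genes), and the median log2 fold change was -0.01. daf-28, an agonist of DAF-2 made by amphid sensory neurons, had 58, 47.1, 40.7 and 41.9 CPM in IvF, against 24.4, 22.7, 19.8 and 21.9 CPM in IvS. Every IvF library was above every IvS library, and the log2 fold change was 1.12 ± 0.22 (adjusted p = 0.0025). ins-6, another agonist, had 5.35, 5.31, 5.34 and 5.00 CPM in IvF, against 2.18, 2.54, 3.27 and 2.97 CPM in IvS (log2 fold change 0.96 ± 0.27, adjusted p = 0.032), and its call was lost without any 1 library other than IvF D or IvS C. ins-5 had 3.86, 3.99, 4.57 and 3.78 CPM in IvF, against 1.49, 2.64, 3.13 and 2.41 CPM in IvS. Those 2 groups did not overlap either, but the adjusted p was 0.081 and ins-5 was not called. ins-4 ranged between 0.771 and 1.71 CPM in IvF and between 0.267 and 1.38 CPM in IvS and was not called. ins-24 was lower, with 9.92, 9.67, 9.81 and 11.6 CPM in IvF and 17.3, 16.6, 15.7 and 17.5 CPM in IvS (log2 fold change -0.70 ± 0.15, adjusted p = 0.0032). ins-12 did not pass the filter on low values and was not tested, at 0.154, 0.158, 0.208 and 0.427 CPM in IvF, against 1.49, 1.22, 0.800 and 1.17 CPM in IvS. tph-1, the tryptophan hydroxylase that makes serotonin in sensory and pharyngeal neurons, had 10.1, 13.3, 12.9 and 15.7 CPM in IvF, against 5.17, 5.66, 5.73 and 6.62 CPM in IvS, a separate and even rise of 1.16 ± 0.14 on the log2 scale (adjusted p = 1e-05).

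Downstream of the receptor, 4 of 18 genes of the insulin to FoxO pathway were called lower (median -0.15), and the 4 were called in every leave-one-out fit. akt-1, the kinase that phosphorylates DAF-16, had 76.8, 132, 123.6 and 122 CPM in IvF, against 278, 282, 287 and 279.6 CPM in IvS. IvF A was the lowest and IvS hardly varied, and the log2 fold change was -1.32 ± 0.14 (adjusted p = 2.8e-06). pdk-1, which activates AKT-1, had 27.1, 38.2, 39.4 and 39.8 CPM in IvF, against 66.7, 87.2, 78.3 and 87.3 CPM in IvS (log2 fold change -1.15 ± 0.12, adjusted p = 2.3e-06). ist-1, an insulin receptor substrate homologue, had 30.6, 54.6, 54.3 and 48.0 CPM in IvF, against 95.5, 109, 111 and 101 CPM in IvS (log2 fold change -1.16 ± 0.20, adjusted p = 0.00068). akt-2 fell by 0.66 ± 0.14 on the log2 scale (adjusted p = 0.0036). Among other signalling genes, aakg-4, a gamma subunit gene of the energy sensor AMPK, had 20.8, 33.3, 33.4 and 33.3 CPM in IvF, against 115, 101, 90.6 and 98.4 CPM in IvS (log2 fold change -1.76 ± 0.22, adjusted p = 2.3e-05). gpa-12, a G protein alpha subunit of the epidermal defence pathway, had 14.8, 23.1, 19.5 and 19.4 CPM in IvF, against 57.7, 52.4, 41.1 and 56.8 CPM in IvS (log2 fold change -1.43 ± 0.16, adjusted p = 5.9e-06).

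**Figure D4:**
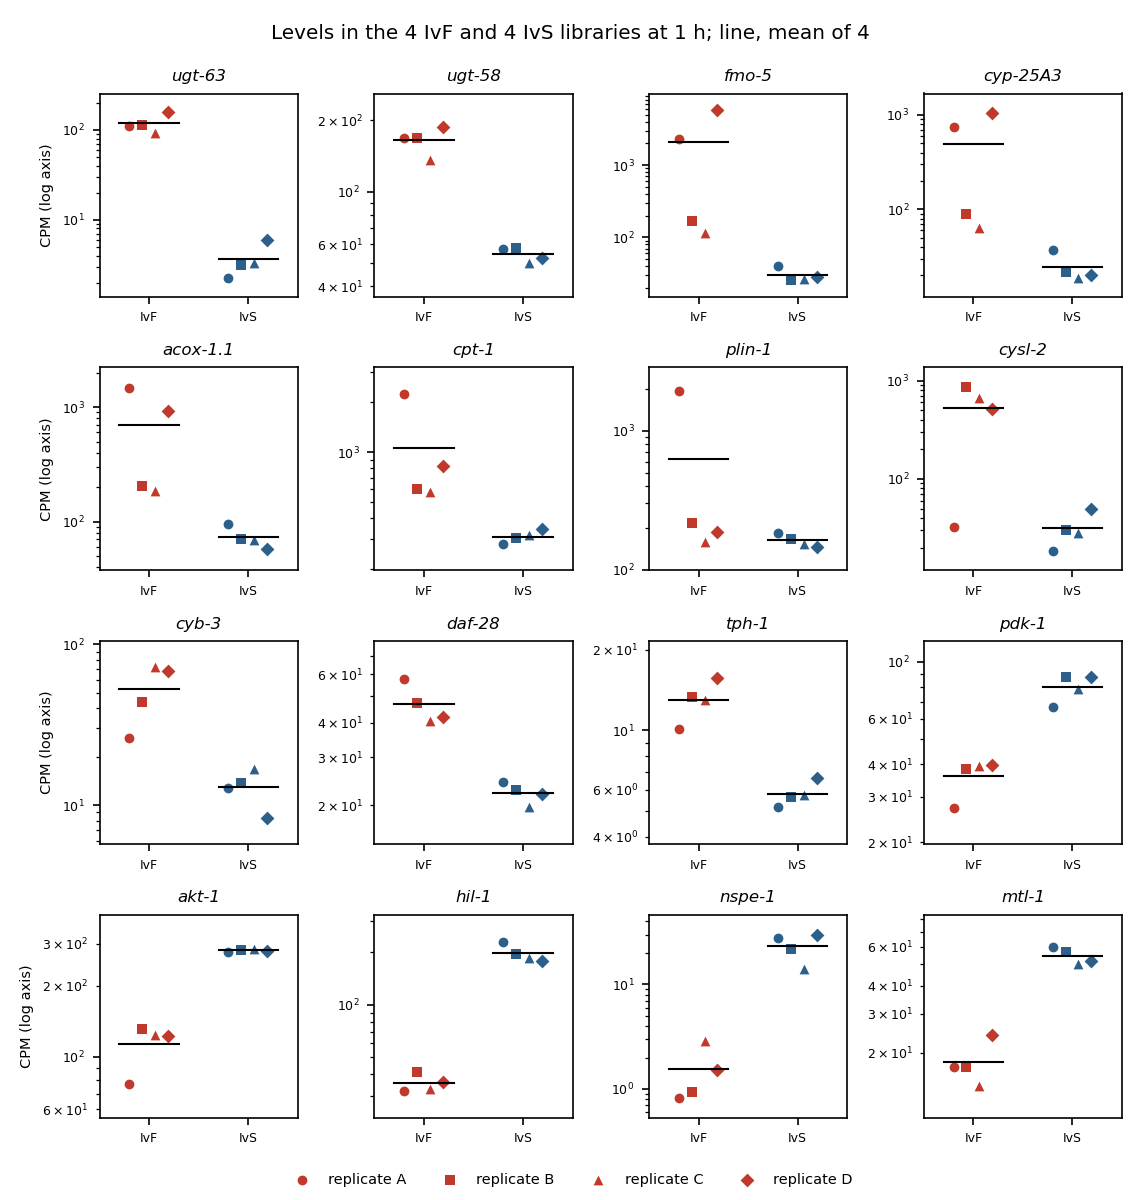
CPM (log axis) of 16 genes (panels) in the IvF libraries (red, left) and the IvS libraries (blue, right), 1 symbol a library by replicate and a line at the mean of 4. daf-28 and tph-1 lie above IvS in all 4 IvF libraries, akt-1, pdk-1 and hil-1 below, cysl-2 is low in IvF A, and plin-1 is high in IvF A alone.

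Neuropeptide and receptor families showed few calls. None of 30 FMRFamide-like (flp) genes was called by edgeR's quasi-likelihood test, by DESeq2 or by edgeR's exact test, and 0 had an unadjusted p below 0.05, although 28 of them had a negative log2 fold change (median -0.11), and summed neuronal markers (9 genes) were at 3116 to 3630 CPM in IvF and at 3619 to 4105 CPM in IvS (exact permutation p = 0.0571). The part of those markers in the flp values was not tested. Of 72 neuropeptide-like protein (nlp) genes 2 were called lower (2.78%, against 6.43% of all genes called), nlp-27 and nlp-28, both of the epidermal antimicrobial cluster. Of 829 chemoreceptor genes that passed the filter, 6 were called higher and 5 lower, 1.33% against 6.43% of all genes. The higher count was 1 without IvF A and 2 or 3 without IvS A, IvS B or IvS C. srr-4 had 174, 148, 132 and 178 CPM in IvF, against 108, 101, 99.9 and 109 CPM in IvS, and its log2 fold change of 0.62 ± 0.16 (adjusted p = 0.015) was not called without IvF A or IvS B.

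The lists of protein synthesis, the proteasome and autophagy gave few calls, at most 3.23% (autophagy), against 6.43% of all genes tested. None of 77 cytosolic ribosomal protein genes, 33 aminoacyl-tRNA synthetase genes and 33 proteasome genes was called by edgeR's quasi-likelihood test, DESeq2 or edgeR's exact test in IvF against IvS, with 0, 1 and 3 genes at an unadjusted p below 0.05. Of 63 ribosome biogenesis genes 1 was called, lower, and of 40 translation factors 1, higher (iff-1, not called without IvF C). Feeding was tested in the same fit between F and S, which share no library with IvF and IvS. Of all 17313 genes tested, feeding called 2674 higher and 2801 lower. Those higher included 41 ribosome biogenesis genes, 29 translation factors and 19 aminoacyl-tRNA synthetases. The interaction, which tests whether the response with ivermectin differed from that to feeding, called 2273 of all genes (13.1%), and among them 37 ribosome biogenesis genes, 27 translation factors, 15 aminoacyl-tRNA synthetases, 23 of 68 mitochondrial ribosomal protein genes and 10 proteasome genes with a lower value in IvF over IvS than in F over S. For the 31 autophagy genes the difference had the other sign: 16 were called lower and 1 higher by feeding, 1 (epg-9) was called higher in IvF, and the interaction called 13 with a higher and 1 with a lower value in IvF over IvS. epg-9, a subunit of the complex that starts autophagosomes, had 177, 202.5, 170.4 and 174 CPM in IvF, against 125, 129, 139 and 119.1 CPM in IvS. Its log2 fold change was 0.51 ± 0.13 (adjusted p = 0.018) in IvF against IvS and -1.4 in F against S, with an adjusted p of 6.1e-07 for the interaction, while the call in IvF was lost without IvF A, IvF B, IvS B or IvS D. The libraries without ivermectin were numbered apart and differ in depth, so that ivermectin and batch cannot be told apart in the interaction.

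**Figure D5:**
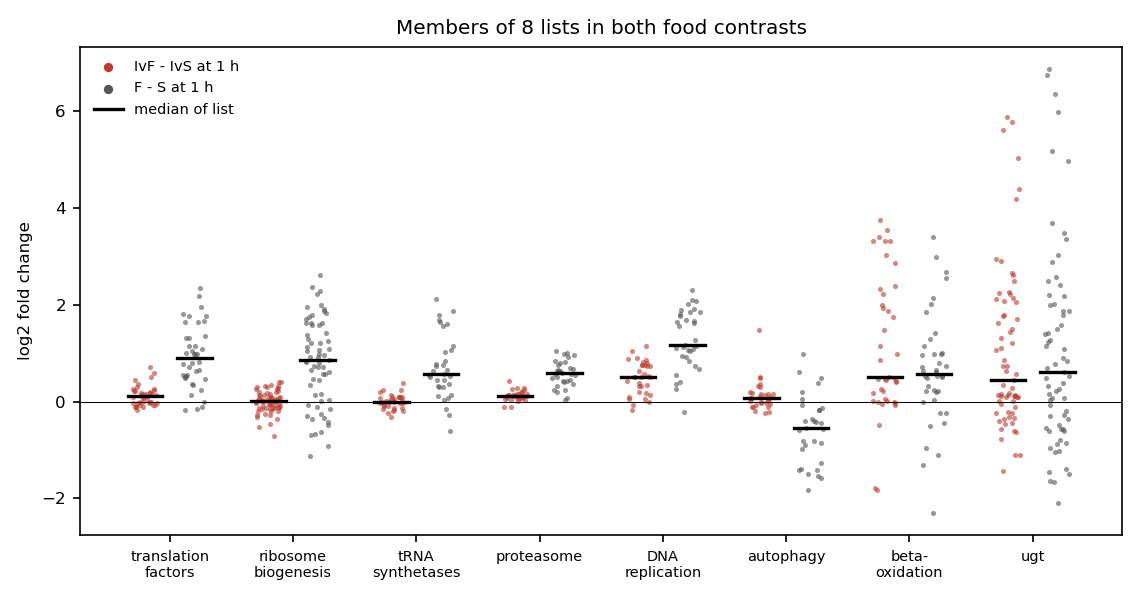
Log2 fold change (vertical axis) of the tested members of 8 gene lists (1 point a gene) for IvF over IvS at 1 h (red, left) and F over S at 1 h (grey, right), with a black line at each median. The ribosome biogenesis medians are 0.02 for IvF over IvS and 0.85 for F over S, and those of autophagy 0.07 and -0.55.

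DNA replication genes rose in part. Of 33 tested 15 were called higher, with a median of 0.51, while 29 were called higher by feeding and the interaction called 19 with a lower value in IvF over IvS. mcm-7, a subunit of the replicative helicase, had 27, 39.2, 55.2 and 51.4 CPM in IvF, against 19.6, 18.5, 20.5 and 18.5 CPM in IvS. A was the lowest of the 4 IvF libraries yet above all IvS libraries, with a log2 fold change of 1.14 ± 0.24 (adjusted p = 0.0041). pcn-1, the sliding clamp PCNA, had 38, 48.2, 60.2 and 55.8 CPM in IvF, against 27.1, 25.3, 27.3 and 17.9 CPM in IvS (log2 fold change 1.04 ± 0.19, adjusted p = 0.00084). The count was 9 without IvF C. Of 25 cell cycle regulators 5 were called higher, the mitotic cyclins cyb-1, cyb-2.1, cyb-2.2 and cyb-3 and the kinase cdk-1, and this count was 3 without IvF C, IvS B or IvS D. The calls of cyb-2.1 and cdk-1 were lost in several fits with 1 library left out. cyb-3 had 26.3, 44.1, 72.5 and 68 CPM in IvF, against 12.7, 13.7, 16.9 and 8.28 CPM in IvS (log2 fold change 1.99 ± 0.41, adjusted p = 0.0031). Beside this, the 4 oocyte markers summed to 25.7 to 62.9 CPM in IvF and to 26.5 to 39.0 CPM in IvS (exact permutation p = 0.171), and oma-1 and puf-5 of the 4 were called higher. oma-1 had 5.4, 11.1, 15.3 and 14.9 CPM in IvF, against 3.55, 2.86, 4.67 and 4.76 CPM in IvS, with A lowest and C and D highest as for mcm-7 and cyb-3. The oma-1 call was lost without IvF C, IvF D, IvS A, IvS B or IvS D, and that of puf-5 without IvF C, IvF D, IvS A, IvS B or IvS C. The 5 primordial germ cell markers summed to 52.0 to 94.4 CPM in IvF and to 59.6 to 70.9 CPM in IvS, and nos-2 of them was called higher, but not without IvF C, IvF D or any 1 of the IvS libraries. The part of these cells, and of the lower aligned share of IvF C and D, in the replication genes was not tested.

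Among the falls, hil-1, a linker histone, had 32.3, 41.4, 32.8 and 36.1 CPM in IvF, against 227, 193, 185.1 and 178 CPM in IvS. The groups were far apart and even, and the log2 fold change was -2.45 ± 0.24 (adjusted p = 1.6e-06), against -5.34 in F over S, with an adjusted p of 4.4e-06 for the interaction. T03E6.8, a gene with no name, had the lowest p of all falls, with 8.69, 15.2, 20.2 and 18 CPM in IvF, against 64.3, 66.7, 65.2 and 66.5 CPM in IvS (log2 fold change -2.11 ± 0.15, adjusted p = 1.1e-08). The metallothionein mtl-1, a metal-binding protein under DAF-16 control, had 17.2, 17.1, 14.2 and 24.0 CPM in IvF, against 59.95, 56.9, 50.05 and 51.7 CPM in IvS (log2 fold change -1.59 ± 0.22, adjusted p = 5.6e-05). The largest falls were those of nspe-1 and nspe-2, small secreted peptides of near-identical sequence whose reads are uncertain between copies. nspe-1 had 0.823, 0.946, 2.85 and 1.52 CPM in IvF, against 28, 21.9, 14 and 29.8 CPM in IvS (log2 fold change -3.93 ± 0.39, adjusted p = 2e-06). In carbohydrate metabolism, tps-1, trehalose-phosphate synthase, had 109, 164, 137 and 126.1 CPM in IvF, against 291, 258, 234.7 and 229 CPM in IvS (log2 fold change -0.91 ± 0.15, adjusted p = 0.00032), and pyk-2, a pyruvate kinase, had 55.7, 69.3, 59.4 and 45.9 CPM in IvF, against 171, 144, 128 and 142.1 CPM in IvS (log2 fold change -1.33 ± 0.17, adjusted p = 2.6e-05). icl-1, the glyoxylate shunt enzyme, overlapped at 3055, 2626, 2244 and 1448 CPM in IvF and 2407, 3282, 2908 and 2304 CPM in IvS and was not called. None of 77 respiratory chain genes was called by edgeR's quasi-likelihood test, DESeq2 or edgeR's exact test, with 3 at an unadjusted p below 0.05 and 61 of them with a negative log2 fold change (median -0.10).

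By gene name prefix, the transthyretin-related (ttr) genes, which encode small secreted proteins, had the most falls: 15 of 46 tested were called lower and 1 higher, with a median of -0.52. ttr-29 had 10.4, 24.0, 17.3 and 18.2 CPM in IvF, against 41.6, 56.5, 45.9 and 58.9 CPM in IvS (log2 fold change -1.54 ± 0.28, adjusted p = 0.00094). The 1 that rose, ttr-50, had 12.8, 18.7, 41.6 and 33.8 CPM in IvF, against 4.92, 3.60, 7.73 and 3.24 CPM in IvS, and lost its call without IvF C, IvF D, IvS A, IvS B or IvS D. Carboxylesterase-like (cest) genes were called lower in 9 of 34 and higher in 3. cest-33 had 340.0, 122, 102 and 379 CPM in IvF, against 39.7, 29.6, 26.7 and 26.5 CPM in IvS, and cest-9.2 had 3.14, 6.30, 7.32 and 7.13 CPM in IvF, against 22.0, 20.0, 16.5 and 18 CPM in IvS. Of the 166 prefixes with at least 10 tested members 71 had no called gene.

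Immune and defence families were divided. Of 24 chitinase-like (chil) genes 4 were called lower (median -0.38), which is 16.7%, against 6.43% called over all genes tested. One of the 4, chil-16, had 2.52, 3.89, 3.11 and 3.90 CPM in IvF, against 12.9, 9.52, 6.4 and 12.7 CPM in IvS. Of 32 pals genes, a family that answers intracellular infection, 2 were called lower, pals-23 (not without IvF A) and pals-26 (not without IvF B, IvF D, IvS A or IvS B). That is 6.25% of the pals genes, close to the 6.43% called over all genes tested. abf-6, an antibacterial factor-like peptide, had 48.5, 84.5, 59.1 and 53.1 CPM in IvF, against 172, 192, 146 and 169 CPM in IvS (log2 fold change -1.46 ± 0.18, adjusted p = 1.5e-05). The C-type lectins (clec) were called higher in 11 and lower in 9 of 200, 10% against 6.43% of all genes tested. Their higher count was 7 without IvF C and 5 or 6 without any 1 of the IvS libraries. clec-87 had 15.9, 26.6, 42.3 and 46.5 CPM in IvF, against 4.42, 5.98, 9.73 and 2.90 CPM in IvS (log2 fold change 2.46 ± 0.53, adjusted p = 0.0046). Of 28 infection response genes (irg, dod, dct) 5 were called higher and dod-3 lower (21.4%, against 6.43% of all genes tested). irg-4 had 6.32, 23.5, 14.5 and 21.8 CPM in IvF, against 2.43, 5.55, 5.20 and 4.83 CPM in IvS, with IvF A lowest but still above IvS (log2 fold change 1.85 ± 0.44, adjusted p = 0.0089). Of 27 cathepsin-type protease genes 3 were called higher and 1 lower (14.8%, against 6.43% of all genes tested), with a median of 0.08. cpr-4, a secreted cathepsin B of the gut, had 1001, 1002, 1023 and 504 CPM in IvF, against 136, 120.5, 175 and 103 CPM in IvS (log2 fold change 2.75 ± 0.44, adjusted p = 0.00032). pept-1, the intestinal peptide transporter, had 306, 334, 307 and 215 CPM in IvF, against 107, 137, 143 and 144 CPM in IvS (log2 fold change 1.16 ± 0.26, adjusted p = 0.006). cpr-6, another cathepsin B, fell by 1.28 ± 0.25 on the log2 scale (adjusted p = 0.0022).

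Nuclear hormone receptors (nhr), a family of ligand-regulated transcription factors, had 21 of 244 called higher and 10 lower. That is 12.7% of the family, against 6.43% called over all genes tested. nhr-202 had 60.2, 53.0, 48.4 and 61.7 CPM in IvF, against 13.2, 17.1, 14.7 and 17.4 CPM in IvS. Its rise was even across libraries, with a log2 fold change of 1.86 ± 0.15 (adjusted p = 7.2e-08), and its neighbours nhr-201 and nhr-203 were called higher too, nhr-203 not without IvF B, IvF D, IvS A or IvS C. nhr-12 had 76.9, 19.7, 20.5 and 45.8 CPM in IvF, against 5.04, 6.08, 6.67 and 7.59 CPM in IvS (log2 fold change 2.76 ± 0.38, adjusted p = 6.3e-05, and 2.08 without IvF A). Feeding lowered 84 of the family and raised 22, against 2801 lowered and 2674 raised of all 17313 genes tested. The interaction called 47 of the family with a higher and 1 with a lower value in IvF over IvS than in F over S. Over all 17313 genes tested it called 1104 higher and 1169 lower. Of 80 hedgehog-related and patched-related genes 10 were called higher and 2 lower (15%, against 6.43% of all genes tested). Their higher count was 6 without IvF A. ptr-22, a patched-related transmembrane protein, had 58.9, 37.7, 29.1 and 121 CPM in IvF, against 7.78, 11, 9.40 and 9.93 CPM in IvS (log2 fold change 2.68 ± 0.55, adjusted p = 0.0031). Of 167 cuticle collagens 4 were called higher (col-74, dpy-2, dpy-14, sqt-3), and 1 or 2 without IvF A, IvF C, IvF D or any 1 of the IvS libraries. The 4 are 2.4% of the collagens, below the 6.43% called over all genes tested. Without IvS A, 5 collagens were called lower.

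Genes called in the same direction stood side by side in 23 runs of at least 3 neighbours among the genes tested. The longest, 8 genes higher on chromosome V, held ugt-36 to ugt-41, F10D2.10 and the chemoreceptor gene str-112 (not called without any 1 library but IvF C), and another of 6 on the same chromosome held ugt-8, ugt-9, ugt-10, ugt-13, ugt-14 and ugt-67. The log2 fold change of F10D2.10 was 3.51, and 1.32 without IvF A. That of ugt-13 was 1.79, and 2.48 without IvS D, with its call lost without IvF D, IvS B or IvS C. A run of 4 lower genes on chromosome I was made of clec-13 to clec-16, which are close copies (clec-14 and clec-16 are annotated as pseudogenes), so that their reads are uncertain between them. Chromosome V had the highest shares of called genes, with 5.57% of 3966 tested called higher and 3.71% called lower.

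Feeding, as F against S, called 5475 of the 17313 genes tested, 2674 higher and 2801 lower. In both comparisons 869 genes were called. They are 78.1% of the genes called in IvF against IvS and 15.9% of those called in F against S. Of the 869 genes, 859 had the same direction. Over the 470 higher in both, the median log2 fold change was 1.3 in IvF over IvS and 1.6 in F over S, and over the 389 lower in both it was -0.95 in IvF over IvS and -1.58 in F over S. The 10 with opposite directions included msra-1, a methionine sulfoxide reductase, at 467, 547, 403 and 299.8 CPM in IvF, against 178.5 ± 3.39 CPM in IvS (mean ± SD, n = 4). Its log2 fold change was 1.3 ± 0.33 in IvF over IvS (adjusted p = 0.014, and not called without IvF A or IvF B) and -1.04 in F over S, with an adjusted p of 0.0013 for the interaction. Of the 244 genes called in IvF against IvS but not in F against S, 46 also differed by the interaction. cpt-1 was 1 of them, with a log2 fold change of -0.0024 in F over S (adjusted p = 0.012 for the interaction). gbh-2, a carnitine synthesis gene, was another, with 39.7, 46.8, 35.9 and 43.6 CPM in IvF, against 11.6, 13.6, 12.5 and 14.4 CPM in IvS (log2 fold change 1.69 ± 0.19, adjusted p = 5.6e-06) and a log2 fold change of 0.17 in F over S. cht-1, a chitinase, fell in IvF by 1.64 ± 0.26 on the log2 scale (adjusted p = 0.00025), with 102, 109.8, 92.1 and 105 CPM in IvF, against 517, 287, 223 and 258 CPM in IvS, and changed by -0.12 in F over S.

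By 24 h the response was smaller in number. IvF against IvS at 24 h called 118 genes higher and 35 lower in the same fit, and 65 genes were called at both times, 60 of them in the same direction. The interaction of food with time called 208 genes (1.2%), and 145 of these were called at 1 h only. Genes whose 1 h rise was larger than at 24 h included ugt-63, with a log2 fold change of 2.46 at 24 h (adjusted p = 0.0052 for the difference), and nhr-202, with 0.47 at 24 h (adjusted p = 0.00065). Among the falls, akt-1 stood at -0.04 at 24 h (adjusted p = 0.00084 for the difference) and T03E6.8 at 0.30 (adjusted p = 4.6e-07). daf-28 stood at -0.27 at 24 h (adjusted p = 0.025 for the difference), and for tph-1, at 0.60, the difference was not called (adjusted p = 0.24).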

How the data were processed

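Polyadenylated RNA of whole L1 larvae was sequenced by the authors from libraries that do not keep strand, with 4 libraries in each of 6 groups. The deposited values are raw read counts per gene, 1 file a library, which the authors made with Bowtie (1.1.2 in the submitters' processing notes) on the WS210 genome with WS220 transcripts and HTSeq. The labels give 10 mL of S-basal per culture and the study's methods another medium and volume. Reads in no gene or in several were left out of library totals and tests, the first 4.46% to 9.52% of reads in IvF and 5.58% to 7.90% in IvS.

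Identifiers above 1 CPM in at least 4 of the 8 libraries of IvF and IvS at 1 h were tested with edgeR 4.0.16 (R 4.3.3, TMM scaling, robust quasi-likelihood fit of 6 group means over 24 libraries, Benjamini-Hochberg adjustment over 17313 genes). The interactions were contrasts of the same fit. Marker sums and library measures were compared by exact permutation tests. Alternatives included DESeq2 1.42.0, and the scripts were tested on simulated data. No library was a copy of another. Named genes were the 12 largest rises and falls, the 5 lowest p-values in each direction, up to 4 genes a list, genes the study names or the strain alters, 5 genes per interaction and direction, and the 5 widest IvF ranges. Genes added to these, including ech-7, daf-22, gbh-2, cht-1, hsp-1, oma-1, ttr-29, ttr-50, cest-33, cest-9.2 and ugt-43, were named after their values were seen. The lists and their members were chosen with earlier results of these data known.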

Additional observations from a re-analysis of the deposited data

Results flagged for a closer look

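In 10 of 232 groups of 4 libraries examined (116 genes in IvF and in IvS), 1 library stood apart from the other 3 by more than Dixon's 95% critical value for the gap over the group's range. Chance gives about 1 in 20 such groups, but the genes were chosen in part for large changes or wide ranges in IvF, so the count cannot be read against that rate. All 10 were in IvF. IvF A was the highest library for plin-1 (gap over range 0.967), F10D2.10 (0.969), cpt-1 (0.85) and cyp-13B1 (0.856), and the lowest for aakg-4 (0.995), pdk-1 (0.876) and acox-1.4 (0.892). IvF D was the lowest for cpr-4 (0.958) and ins-6 (0.886) and the highest for ins-24 (0.867).

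The response to food differed between larvae with and without ivermectin, by the interaction in the edgeR fit, for 24 of these genes. These genes were chosen in part for large changes or by the interactions themselves. The count thus cannot be read against the 13.1% that this interaction called over all genes tested. The difference (log2 fold change of IvF over IvS minus that of F over S) was positive for str-112 (3.32), hil-1 (2.89), icl-1 (2.78), msra-1 (2.34), mtl-1 (2.27), epg-9 (1.92), cpt-1 (1.87), aakg-4 (1.71), glc-1 (1.69), dod-3 (1.58), gbh-2 (1.52), akt-1 (0.82), akt-2 (0.82), T03E6.8 (0.80), nhr-201 (0.73) and pals-23 (0.64). It was negative for irg-4 (-2.68), ech-7 (-2.02), hsp-17 (-1.63), hsp-1 (-1.62), cht-1 (-1.53), cdk-1 (-1.1), pmp-1 (-0.99) and pcn-1 (-0.87).

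Between 1 h and 24 h with ivermectin, 36 of the genes differed by the interaction of food with time. For the same reason this count cannot be read against the 1.2% called over all genes tested. The difference (log2 fold change of IvF over IvS at 1 h minus that at 24 h) was positive for cysl-2 (4.01), dhs-8 (3.84), rips-1 (3.08), lips-10 (2.73), ugt-63 (2.57), msra-1 (2.37), ugt-9 (2.0), pgp-3 (1.92), hsp-17 (1.71), nhr-202 (1.39), daf-28 (1.38), gbh-2 (1.34), hsp-1 (1.13), ugt-58 (0.93) and nhr-201 (0.92). It was negative for cyp-37B1 (-2.99), nspe-2 (-2.84), nspe-1 (-2.41), T03E6.8 (-2.40), hil-1 (-2.24), ugt-43 (-2.14), clec-14 (-2.18), clec-16 (-2.12), mtl-1 (-1.57), mrp-3 (-1.53), aakg-4 (-1.52), nlp-28 (-1.37), pals-23 (-1.33), akt-1 (-1.28), cest-9.2 (-1.24), ins-24 (-1.15), pyk-2 (-1.11), abf-6 (-1.06), gpa-12 (-0.99), pdk-1 (-0.99) and tps-1 (-0.93).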

How the results depend on the processing

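The number of genes called in IvF against IvS moved with the test more than with the scaling. It was 1310 (690 higher, 620 lower) in a fit of the 8 libraries alone, of which 925 were among the 1113, and 1120 with DESeq2 size factors, 826 without a filter on low counts, 1050 with a mean of at least 5 CPM, 1282 with edgeR's exact test and 1387 with DESeq2. Testing against the fold threshold itself (glmTreat) left 412 genes (265 higher, 147 lower), 837 for the interaction with ivermectin and 72 for that with time. Leaving out each library in turn gave 792 to 1038 genes (452 to 662 higher, 317 to 376 lower), 1832 to 2768 for the interaction with ivermectin and 139 to 269 for that with time. The interaction with ivermectin called 1377 genes without a filter, and that with time 372 when only the 16 ivermectin libraries were fitted and 429 with DESeq2.

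Same-numbered IvF and IvS libraries deviated together in 2 of 4 cases (correlations of 0.481, -0.171, -0.225 and 0.532). Whether the numbers pair them could not be told from this, and the main fit treats the libraries as unpaired. With the replicate number as a block 1404 genes were called, and 428 for the interaction with time. In the fit of the 8 libraries alone that block gave 1427, with 701 lower. With the share of reads outside genes as a covariate 1263 were called, and 1697 (809 lower) in the fit of the 8 libraries alone, an alternative chosen after seeing the data. Of 211 named genes that were called, 84 were called under every alternative, and none changed direction. In simulated counts for IvF against IvS over 17313 genes, 57 of 100 genes changed by 1 on the log2 scale and 80 of 100 changed by 2 were recovered, with 7 false calls. Changes of these sizes and smaller ones can thus be missed. A gene had the same spread in every simulated group, while the real IvF libraries stood further apart than IvS, so these shares need not hold for the real comparison.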

Other observations

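Other families with calls in IvF against IvS are given as counts. Of 25 genes of the methionine cycle and phosphocholine synthesis 5 were called higher, but 1 without IvF A or without IvS B. F-box genes, which encode adaptors of ubiquitin ligases, were called higher in 7 and lower in 9 of 272 (5.88%, against 6.43% of all genes tested). Their higher count was 4 without IvF D, IvS A or IvS B. The Skp1-related (skr) genes, which act in the same ligases and include close copies, were called higher in 4 and lower in 2 of 17. Of 12 acid phosphatase (pho) genes 4 were called higher. None of 21 vacuolar ATPase genes was called by edgeR's quasi-likelihood test, DESeq2 or edgeR's exact test, with 0 at an unadjusted p below 0.05.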
